A study of Mus musculus with 6 samples.

Results

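Interferon regulatory factors (IRFs) are transcription factors that bind the interferon-stimulated response element (ISRE) and related sites, and they carry signals from pattern recognition receptors and interferon receptors to the genome. IRF3 is made constitutively and, once phosphorylated, starts interferon-β transcription, and IRF7 is an interferon-inducible factor that amplifies it. IRF9 binds DNA for ISGF3, a complex that also holds STAT2, IRF1 is an inducible activator, and IRF2 competes with it for the same sites. IRF5 acts downstream of Toll-like receptors, and IRF4 and IRF8 work mostly in blood cell lineages with partners such as PU.1. The 8 genes Irf1, Irf2, Irf3, Irf4, Irf5, Irf7, Irf8 and Irf9 were taken by name from a table of 57010 genes. Each matched 1 row.

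The RNA-seq data covered 6 libraries of primary neonatal mouse cardiomyocytes (NMCMs), all of them kept under hypoxia (HO). The study isolated these cells by enzymatic digestion of hearts of C57BL/6 mouse pups aged 1 to 3 days and kept the cells that did not attach during differential adhesion. V1 to V3 made up the HO + Vehicle group (n = 3), and T4 to T6 the HO + β-SITO group (n = 3), whose cells received β-sitosterol, a plant sterol. The comparison asks how transcripts differ with β-SITO in hypoxic cultures labelled NMCMs, and the dose and time for these libraries were not given in the sources used here. No normoxic library was analysed here. The libraries held 16694734 to 18460522 counts. The names of all 3 HO + β-SITO libraries end in a letter that the other names lack, and any difference in preparation that this letter may stand for cannot be told apart from β-SITO itself.

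Marker genes were checked against the label. Cardiomyocyte markers such as Myh6 and Tnnt2 were abundant in every library, with 11 of 11 tested, and fibroblast markers, 8 of 8 tested, were abundant as well. Summed per kilobase of exon, cardiomyocyte markers came to 2205 to 2546 CPM (read counts scaled to library size with TMM) under vehicle and 2072 to 3953 with β-SITO, and fibroblast markers to 3643 to 3757 and 5245 to 5388. On the same scale macrophage markers were at 800.0 to 899.8 against 1781 to 2191 and endothelial markers at 38.0 to 44.0 against 144.2 to 153.8. Of the 12 macrophage markers 8 rose and 1 fell, all 7 endothelial markers rose, 2 of the 11 cardiomyocyte markers rose, and none of the 8 fibroblast markers reached 2-fold. Here a rise or fall means an adjusted p under 0.05 (test given below) and more than 2-fold, which 12.8% and 10.1% of all tested genes reached. Below 2-fold, 7 fibroblast and 4 cardiomyocyte markers had an adjusted p under 0.05, in both directions. Lymphocyte markers were close to absent (Cd3e, Cd3d, Cd3g and Ncr1 had no count, and 1 of 11 was tested). The tested one, Cd4, rose from 5, 11 and 3 counts to 35, 37 and 38. Of 8 dendritic cell markers 3 were tested, of which 1 rose (Clec9a, from 2, 5 and 2 counts to 20, 23 and 18). T4 stood apart from T5 and T6, with the lowest cardiomyocyte sum (2072 against 3869 and 3953) and the highest macrophage sum (2191 against 1789 and 1781), so fold changes, ratios, main shares, sums and list counts are also given without it. The fibroblast sum was above the cardiomyocyte sum in every library, so a difference between the groups cannot be assigned to cardiomyocytes. In bulk samples, fewer cells of a type and less RNA per cell cannot be told apart.

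Sequences in front of 4 of these genes are shown first, because they include the activator Irf1 and its competitor Irf2, the gene with the largest decrease, Irf7, and Irf8, which was lower by less than 2-fold. Each line gives the 250 bases before the RefSeq start, read 5′ to 3′ on the gene's strand, in build GRCm38.p6. Capitals mark matches to 3 motifs, which are the ISRE core (GAAA, NN and GAAA in a row), the STAT-binding GAS motif (TTCNNNGAA) and the NF-κB consensus, on either strand. The windows lie at chr11:53769764-53770013 (plus strand) for Irf1, chr8:46739495-46739744 (plus strand) for Irf2, chr7:141266425-141266674 (minus strand) for Irf7 and chr8:120736108-120736357 (plus strand) for Irf8.
Irf1: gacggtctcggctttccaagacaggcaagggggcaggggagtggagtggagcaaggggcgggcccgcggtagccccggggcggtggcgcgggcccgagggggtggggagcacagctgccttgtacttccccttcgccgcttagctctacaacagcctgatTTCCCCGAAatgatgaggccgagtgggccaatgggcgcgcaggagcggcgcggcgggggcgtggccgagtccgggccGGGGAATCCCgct
Irf2: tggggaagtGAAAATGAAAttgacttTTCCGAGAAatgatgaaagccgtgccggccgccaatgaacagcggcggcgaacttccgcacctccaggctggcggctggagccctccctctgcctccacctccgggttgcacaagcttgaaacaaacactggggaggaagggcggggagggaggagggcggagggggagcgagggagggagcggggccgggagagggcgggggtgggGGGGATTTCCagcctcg
Irf7: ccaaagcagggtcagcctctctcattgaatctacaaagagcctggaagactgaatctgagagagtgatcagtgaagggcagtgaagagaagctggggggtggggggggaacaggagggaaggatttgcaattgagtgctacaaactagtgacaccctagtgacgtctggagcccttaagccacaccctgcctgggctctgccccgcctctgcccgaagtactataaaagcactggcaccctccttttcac
Irf8: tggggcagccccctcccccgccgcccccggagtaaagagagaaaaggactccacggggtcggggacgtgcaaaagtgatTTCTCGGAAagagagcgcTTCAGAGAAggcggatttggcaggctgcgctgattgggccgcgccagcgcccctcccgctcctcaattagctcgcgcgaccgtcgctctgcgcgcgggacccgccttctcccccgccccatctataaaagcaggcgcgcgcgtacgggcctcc

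All 8 genes had at least 1 promoter window in the table, with 11 windows of 300 bases in all (250 before and 50 after a start). The Irf1 window held a GAS match starting at -90 and an NF-κB match on both strands at -13, counted from the start. The Irf2 window held an ISRE core at -241, a GAS match at -224 and an NF-κB match at -17, none of which overlapped another. The Irf8 window held GAS matches at -171 and -153. Irf3, Irf4, Irf5, Irf7 and Irf9 had no match of these letters in their windows. GAS was thus found for 3 of 8 genes, the NF-κB consensus for 2 and the ISRE core for 1, while 9.55%, 9.55% and 3.99% of 27025 genes with a window of this length held them. A match is a description of the letters, and binding was not measured.

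Of the 8 IRF genes 4 fell by more than 2-fold in the HO + β-SITO group (Irf7, Irf1, Irf9 and Irf5), none rose by that much, and Irf4 had too few counts to be tested. Irf2 and Irf8 were lower and Irf3 was higher by less than 2-fold, each with an adjusted p under 0.05. P-values come from edgeR's quasi-likelihood test, adjusted by Benjamini-Hochberg over the 14799 genes left by a filter on low counts. To be called, a gene needed both an adjusted p below 0.05 and more than a 2-fold difference. The 4 genes are 57.1% of the 7 tested, where 10.1% of all tested genes were called lower and 12.8% higher. The lowest count of a tested IRF gene in any library was 172, so none of the 7 passed the filter through 1 group alone. The median log2 fold change was -1.66 over the 7 genes and -0.01 over all tested genes. At any fold, 7 of 7 had an adjusted p under 0.05 (6 lower and 1 higher), against 66.8% of all tested genes (33.8% lower and 33.0% higher). For 7 of 7 the groups stood apart library by library, against 70.5% of tested genes (35.8% lower and 34.8% higher), so those counts say little about the family. For each IRF gene the exact permutation test over libraries (two-sided) gave p = 0.1, the smallest that 3 against 3 allow. Nothing in the labels says that the libraries of a group came from separate cultures, so p-values measure only the spread between these libraries.

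**Figure D1:**
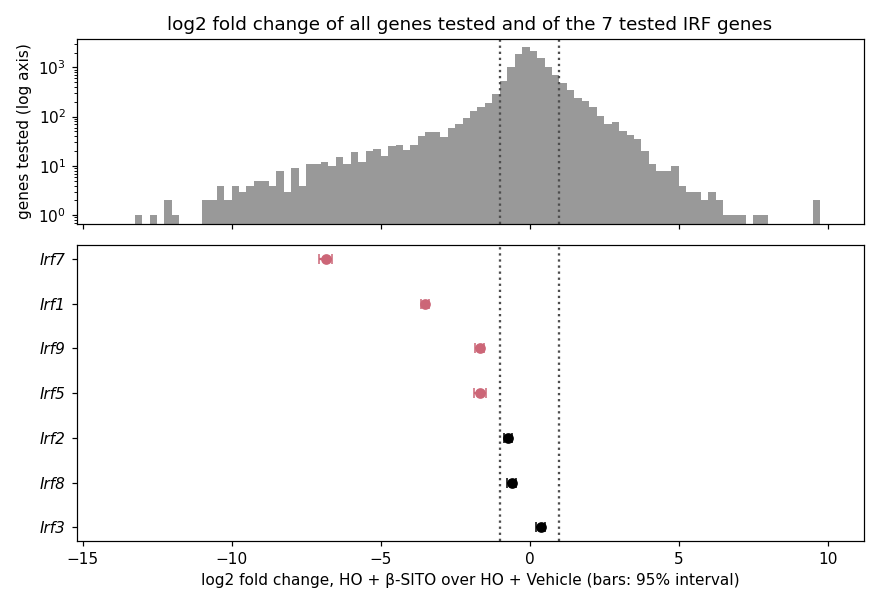
The upper panel shows how many of the 14799 tested genes had each log2 fold change (HO + β-SITO over HO + Vehicle, log count axis) and the lower panel the values of the 7 tested IRF genes with their 95% intervals. Irf7 (-6.85) and Irf1 (-3.51) lie far to the left, Irf9 and Irf5 next to each other, Irf2, Irf8 and Irf3 between the dotted lines at a 2-fold change, and called genes are drawn in red.

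Irf7, the inducible amplifier of the interferon response, had 18757, 20952 and 19036 counts in V1 to V3 and 221, 208 and 172 in T4 to T6. Each HO + β-SITO library was far below each HO + Vehicle library. Its level was 1226 ± 75.7 CPM against 10.7 ± 1.49 CPM (SD, n = 3), which left 0.870% of the HO + Vehicle level. The log2 fold change was -6.85 (SE 0.10, 95% interval -7.06 to -6.63, adjusted p = 6.45e-17). Only 0.649% of tested genes had a lower log2 fold change. By CPM, Irf7 was the gene of rank 79 from the top among the tested genes in the HO + Vehicle group and of rank 9401 in the HO + β-SITO group. In GRCm39, the build named in the submitters' processing notes, Irf7 lies on the minus strand of chromosome 7 from 140842619 to 140846394. It shares 45 bases with Phrf1 on the other strand, and Phrf1 did not pass (log2 fold change 0.03, adjusted p = 0.719).

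Irf1, an activator of genes for antigen presentation and of interferon-γ responses, had 4773, 4980 and 4756 counts in V1 to V3 against 545, 462 and 494 in T4 to T6. The groups were again far apart, with little spread inside each. In CPM this was 302.8 ± 8.78 against 26.6 ± 1.26 (SD, n = 3), an 11.4-fold decrease with a log2 fold change of -3.51 (SE 0.065, 95% interval -3.65 to -3.37, adjusted p = 6.05e-16). Irf1 lies on chromosome 11 from 53660841 to 53669200 on the plus strand. The unclassified transcript Gm17334 covers 3144 bases of it on the opposite strand and had 14 to 28 counts per library under vehicle and 1 to 3 with β-SITO. The strand setting of the counting was not given, so reads of these overlapping genes cannot be told apart.

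Irf2, the factor that competes with IRF1, had 1232, 1238 and 1195 counts in V1 to V3 and 948, 806 and 852 in T4 to T6. The groups did not overlap, although the gap was small beside that of Irf1. The level was 76.5 ± 2.11 against 46.1 ± 2.30 CPM (SD, n = 3), and the log2 fold change was -0.73 (SE 0.063, 95% interval -0.86 to -0.59, adjusted p = 6.42e-08), which did not reach 2-fold. Irf2 lies on chromosome 8 from 47192767 to 47300493 on the plus strand.

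Irf9 encodes the DNA-binding subunit of ISGF3. Its counts were 2031, 1925 and 1904 in V1 to V3 and 766, 738 and 665 in T4 to T6. In CPM this was 122.3 ± 5.33 against 38.5 ± 3.52 (SD, n = 3), a 3.18-fold decrease with a log2 fold change of -1.67 (SE 0.072, 95% interval -1.82 to -1.51, adjusted p = 1.36e-11). Every HO + β-SITO library was below every HO + Vehicle library. Irf9 lies on chromosome 14 from 55841028 to 55847487 on the plus strand and shares 123 bases with Rnf31 on the same strand. Rnf31, a subunit of the linear ubiquitin ligase complex, fell to a like degree, from 70.9 ± 4.81 to 24.1 ± 1.09 CPM (SD, n = 3; log2 fold change -1.55, adjusted p = 3.93e-11). How reads in the shared bases were counted was not given, and their part in the result was not tested.

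Irf5, which encodes a factor that acts after Toll-like receptor signaling in myeloid cells, had 1011, 1041 and 944 counts in V1 to V3 and 449, 332 and 337 in T4 to T6. T4 was the highest of its group, and all 3 stayed below the HO + Vehicle libraries. The level was 62.5 ± 3.56 against 19.8 ± 2.92 CPM (SD, n = 3), with a log2 fold change of -1.66 (SE 0.093, 95% interval -1.86 to -1.46, adjusted p = 3.24e-10). The interval of Irf9 lay inside that of Irf5. Irf5 lies on chromosome 6 from 29526624 to 29541870 on the plus strand. Tnpo3, with which it shares 1045 bases on opposite strands, was at a log2 fold change of -0.29 (adjusted p = 0.00277).

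Irf8, a lineage factor of macrophages and dendritic cells, had 851, 856 and 865 counts in V1 to V3 and 719, 596 and 678 in T4 to T6. The HO + Vehicle libraries were all above the others, and they were closer to each other than counting error alone would make likely. In CPM it was 53.7 ± 0.071 against 35.2 ± 1.72 (SD, n = 3), and the log2 fold change was -0.61 (SE 0.066, 95% interval -0.75 to -0.47, adjusted p = 8.25e-07), which did not reach 2-fold. Irf8 lies on chromosome 8 from 121463097 to 121483433 on the plus strand. Irf5 and Irf8 were lower in the group in which the macrophage marker sum was higher, as given above, but the 12 markers did not move together. While 8 rose, Adgre1 (log2 fold change -0.06, adjusted p = 0.471) and Ptprc (-0.03, adjusted p = 0.813) did not pass. Aif1 was lower by less than 2-fold (-0.77), and Fcgr1 fell (-2.18). The sum therefore does not give the number of macrophages, and the part of macrophage number in either value was not tested.

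Irf3, the constitutive factor that acts after RIG-I-like receptors, STING and TRIF, was the tested IRF gene with a higher level in the HO + β-SITO group. It had 394, 440 and 411 counts in V1 to V3 and 658, 604 and 627 in T4 to T6. The level was 26.0 ± 1.42 against 33.5 ± 0.722 CPM (SD, n = 3), and the log2 fold change was 0.37 (SE 0.073, 95% interval 0.21 to 0.52, adjusted p = 4.25e-04), well short of 2-fold. Irf3 lies on chromosome 7 from 44647072 to 44652272 on the plus strand and shares 1065 bases with Bcl2l12 on the other strand, which had a log2 fold change of 0.39 (adjusted p = 0.0291).

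Irf4, a factor of lymphocytes and of alternatively activated macrophages, was close to absent, with 1, 1 and 0 counts in V1 to V3 and 14, 5 and 7 in T4 to T6. Each HO + β-SITO library held more counts than any HO + Vehicle library, and the gene did not pass the filter on low counts. The summed counts, 26 against 2, gave a ratio of 12.2 after scaling to library size (exact 95% interval 3.06 to 106.3, which covers counting error only). Irf4 lies on chromosome 13 from 30933209 to 30950959 on the plus strand.

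**Figure D2:**
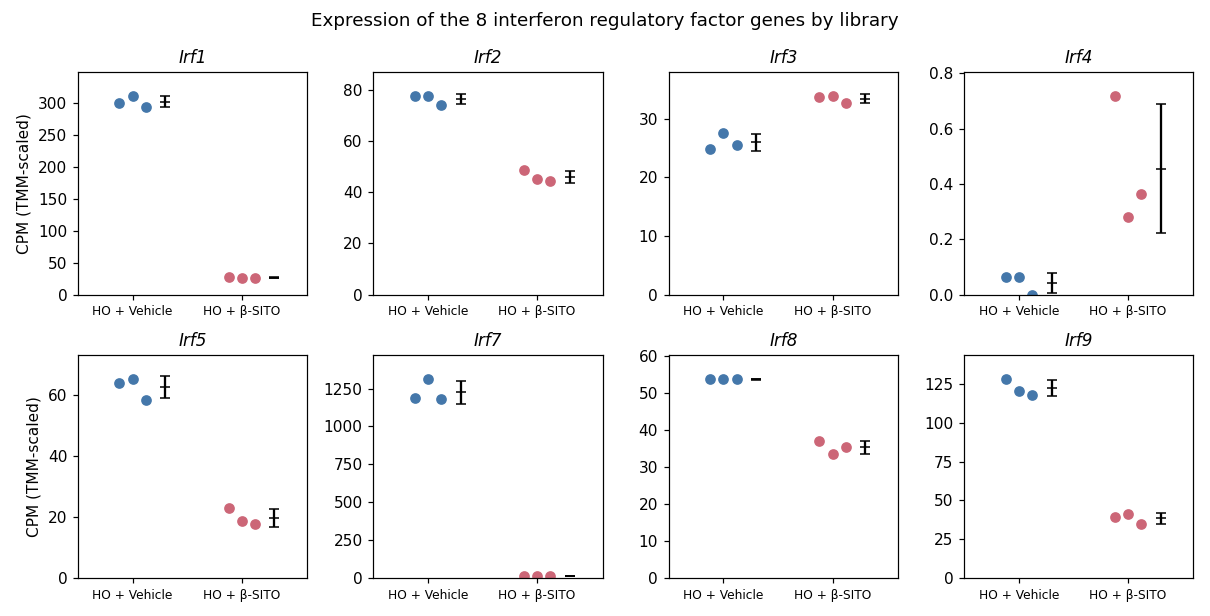
Each panel shows 1 IRF gene, with CPM on a linear axis from 0, a point per library (blue for HO + Vehicle, red for HO + β-SITO) and the mean with its SD beside the points (n = 3). The groups do not overlap for any gene shown, as for 70.5% of all tested genes. Irf7 falls from 1226 to 10.7 CPM. Irf3 and the scarce, untested Irf4 (at most 14 counts in a library) are the genes with the HO + β-SITO points on top.

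Without T4 the same 4 genes were called. The log2 fold changes were then -6.89 for Irf7, -3.55 for Irf1, -1.79 for Irf5, -1.69 for Irf9, -0.77 for Irf2, -0.64 for Irf8 and 0.36 for Irf3, and all genes called lower numbered 1565.

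Levels were compared between genes per kilobase of exon, using the union of exons of each gene in GENCODE vM21. In the HO + Vehicle group the order was Irf7 (324.7 CPM per kilobase), Irf1 (76.2), Irf9 (22.7), Irf5 (21.5), Irf2 (10.3), Irf8 (7.61), Irf3 (7.55) and Irf4 (0.00856). Neighbours in that order stood apart library by library, except Irf9 and Irf5 and except Irf8 and Irf3. In the HO + β-SITO group the order was Irf3 (9.72), Irf9 (7.15), Irf5 (6.80), Irf1 (6.68), Irf2 (6.24), Irf8 (4.996), Irf7 (2.83) and Irf4 (0.0928). There the libraries of Irf9, Irf5, Irf1 and Irf2 overlapped from each to the next. Among the 7 tested genes the highest level was 43.0 times the lowest in the HO + Vehicle group and 3.44 times in the HO + β-SITO group. Irf7 thus went from the highest to the lowest of these 7 genes, and Irf3, which overlapped Irf8 at the lower end under vehicle, was the highest with β-SITO. With the length of the longest protein-coding transcript instead, the spans were 42.8 and 3.87 times, Irf2 came before Irf5 under vehicle, and Irf2 (18.5) came before Irf3 (16.5) with β-SITO.

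The summed level of the 8 genes was 460.8, 497.4 and 453.7 CPM per kilobase in V1 to V3 and 47.1, 44.5 and 41.9 in T4 to T6, a 10.6-fold decrease. Without Irf7 the sum was 145.9 ± 4.26 against 41.7 ± 2.31 (SD, n = 3), a 3.50-fold decrease. Irf7 made up 68.1%, 69.9% and 68.9% of the summed level in V1 to V3 and 6.39%, 6.96% and 5.67% in T4 to T6. The share of Irf3 was 1.61% ± 0.032 against 21.9% ± 0.923 (SD, n = 3), and that of Irf2 was 2.20% ± 0.087 against 14.0% ± 0.289. The share of Irf1 was 16.2% ± 0.358 against 15.0% ± 0.398, a difference of -1.17 percentage points that was -2.88 with the longest protein-coding transcript and -3.60 without division by length. Shares of Irf5, Irf8 and Irf9 were higher by 10.7, 9.62 and 11.2 percentage points. For Irf5 this was 6.77 with the longest protein-coding transcript and 6.003 without division by length, and for Irf2 the difference of 11.8 points was 17.6 and 17.8. Without T4 the share of Irf7 differed by -62.6 points, that of Irf3 by 20.8 and that of Irf1 by -1.14, and the summed level fell 10.9-fold (3.61-fold without Irf7). Shares do not depend on the scaling between libraries, and each of the 8 differed without overlap of the libraries (exact permutation test, two-sided, p = 0.1 before and after Benjamini-Hochberg adjustment over 8 genes, the smallest possible). The shares of a library add up to the whole, so they are not 8 separate results, and the drop of Irf7 by itself raises the other shares. Irf2, Irf5, Irf8 and Irf9 had higher shares although their levels were lower.

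**Figure D3:**
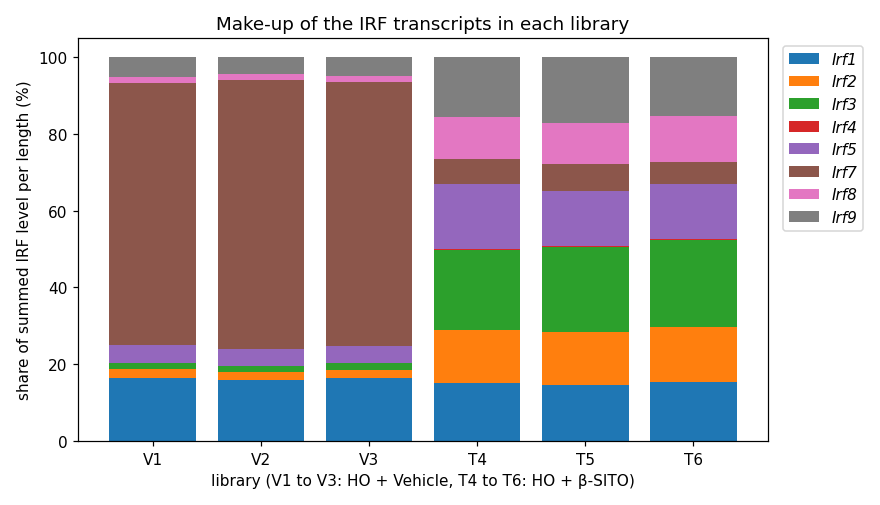
Stacked bars give the share (%) of each IRF gene in the summed IRF level per length, for the libraries V1 to V3 (HO + Vehicle) and T4 to T6 (HO + β-SITO). Irf7 fills 68.1% to 69.9% of the first 3 bars and 5.67% to 6.96% of the last 3, where 6 genes have shares above 10%.

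Ratios of genes that act together were taken within each library, from counts per length. The ratio of the activator Irf1 to its competitor Irf2 was 7.20, 7.48 and 7.40 in V1 to V3 and 1.07, 1.07 and 1.08 in T4 to T6, a log2 difference of -2.78. Which transcript was the more abundant with β-SITO depends on the length used, since with the longest protein-coding transcript the ratio was 4.53 to 4.70 under vehicle and 0.670 to 0.678 with β-SITO, while the difference between the groups does not depend on length. The ratio of the inducible Irf7 to the constitutive Irf3 was 43.3, 43.4 and 42.2 in V1 to V3 and 0.307, 0.314 and 0.251 in T4 to T6, a log2 difference of -7.22.

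For the subunits of ISGF3, the ratio of Irf9 to Stat2 was 0.311 to 0.331 under vehicle and 1.003 to 1.25 with β-SITO, a log2 difference of 1.76. Irf9 was thus the less abundant of this pair of transcripts in every HO + Vehicle library, and its ratio was above 1 in every HO + β-SITO library (1.36 to 1.69 with the longest protein-coding transcript). Stat2 fell from 418.1 ± 16.9 to 38.8 ± 3.81 CPM (SD, n = 3), with a log2 fold change of -3.43 against -1.67 for Irf9.

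Spi1 encodes PU.1, with which IRF4 and IRF8 bind composite sites. It was at 21.5 ± 0.661 against 29.7 ± 4.67 CPM (SD, n = 3; log2 fold change 0.47, adjusted p = 7.58e-04). The ratio of Irf8 to Spi1 was 0.931 to 0.990 under vehicle and 0.403 to 0.514 with β-SITO (1.74 to 1.85 and 0.753 to 0.961 with the longest protein-coding transcript), and that of Irf5 to Spi1 was 2.51 to 2.86 and 0.611 to 0.621. The ratio of Irf4 to Spi1 rests on 28 counts of Irf4 and stayed under 0.012 in every library. Each of these pairs stood apart between the groups (exact permutation test, two-sided, p = 0.1 before and after Benjamini-Hochberg adjustment over the 7 pairs computed, the smallest possible). The IRF genes of these pairs also stood apart alone, as did 70.5% of all tested genes, so the separation says little about the pairs. Without T4 the log2 differences were -2.78 for Irf1 to Irf2, -7.26 for Irf7 to Irf3, 1.82 for Irf9 to Stat2, -0.98 for Irf8 to Spi1 and -2.12 for Irf5 to Spi1.

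**Figure D4:**
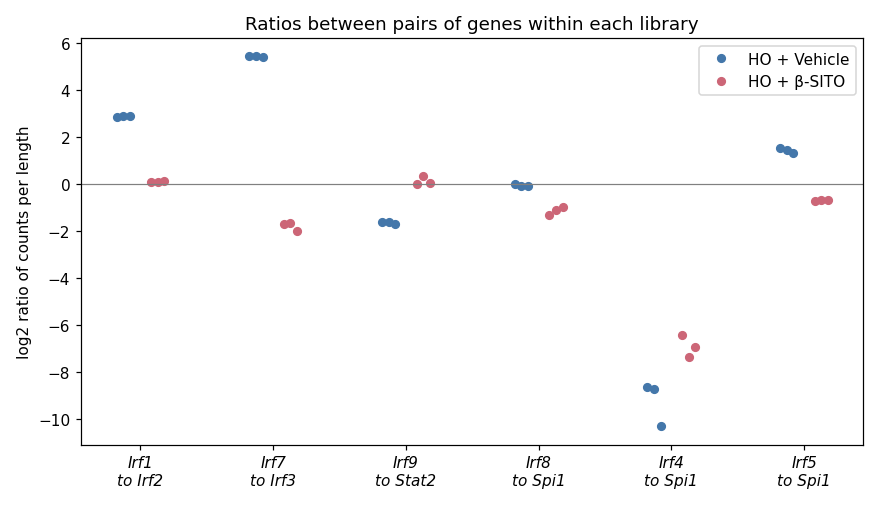
Points give the log2 ratio of counts per length for 6 pairs of genes in each library (blue for HO + Vehicle, red for HO + β-SITO). Lengths are unions of exons. With them Irf1 to Irf2 drops to near 0 (below 0 with the longest protein-coding transcript), Irf7 to Irf3 crosses from above 5 to below -1, and Irf9 to Stat2 moves up.

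Genes around the IRFs were described from lists by role, which were chosen with earlier results of these data known. Of 17 interferon ligands, receptors and ISGF3 partners 10 were tested, of which 4 fell and none rose, with a median log2 fold change of -0.82. Interferon ligands gave almost no reads. Ifnb1 had 1 count in 1 HO + Vehicle library, and Ifna2, Ifna4, Ifng, Ifnl2 and Ifnl3 had none in any library. Among the genes that fell were Stat2, given above, and Jak2, a kinase of the interferon-γ receptor (397.0 ± 25.1 against 35.9 ± 1.75 CPM, SD, n = 3, log2 fold change -3.47). Ifnlr1, a receptor subunit for interferon-λ, had the highest value, -0.20, and did not pass (adjusted p = 0.447).

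The list of sensors, adaptors and kinases upstream of IRF3, IRF5 and IRF7 had 26 tested genes, of which 11 fell and 1 rose, with a median of -0.77. Dhx58, which encodes the RNA sensor LGP2 (log2 fold change -4.33, adjusted p = 1.43e-15), and Tlr3, a receptor for double-stranded RNA (-4.12, adjusted p = 8.73e-16), were the lowest. Ticam2, an adaptor of TLR4, rose from 26, 26 and 31 counts to 101, 66 and 55 (log2 fold change 1.18, adjusted p = 5.05e-04).

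Of 14 tested partner transcription factors and co-regulators 4 fell and none rose, with a median of -0.25. Spib, which encodes a relative of PU.1, had 1364, 1300 and 1323 counts in V1 to V3 and 1, 0 and 1 in T4 to T6. The ratio of its summed counts was 2120 after scaling to library size (exact 95% interval 586 to 17509, counting error only). Batf2, a partner of IRF1 in macrophages, fell from 42.4 ± 3.47 to 0.424 ± 0.129 CPM (SD, n = 3; log2 fold change -6.62). Ikzf1, a lymphoid and myeloid factor, had the highest value, 0.66 (adjusted p = 1.40e-04), below 2-fold.

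ISRE target genes, which are bound by ISGF3 and by IRF3 and IRF7, fell in 25 of 25 cases with a median of -6.51. Ccl5 had the lowest value (log2 fold change -12.16, with 25552 to 30479 counts per library under vehicle and 6 to 8 with β-SITO), followed by the chemokine gene Cxcl10 (-10.42). Eif2ak2, the gene of the kinase PKR, fell least (-2.95). Genes listed as IRF1 targets fell in 22 of 22 cases with a median of -4.93, from the chemokine gene Cxcl9 to Casp1, the gene of caspase-1 (-1.64). Because both lists were chosen with earlier results known, these counts are no test, and dependence of the genes on an IRF was not measured. Cxcl9 had 5998 to 6519 counts per library under vehicle and 0 to 2 with β-SITO, and Il12b, an interleukin subunit gene, had 493 to 626 and 0 to 1. Their ratios of summed counts were 6741 (exact 95% interval 2306 to 32691) and 1801 (323 to 71187), counting error only.

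Regulators that limit IRF activity fell in 5 of 12 cases with a median of -0.51, and none rose by 2-fold. Of these 5, Socs1 (log2 fold change -3.24) is also among the genes listed as IRF1 targets. Usp18, which blocks the type I interferon receptor and is also among the ISRE targets, went from 462.1 ± 16.6 to 3.91 ± 1.31 CPM (SD, n = 3; log2 fold change -6.87). Tnfaip3, the gene of the NF-κB inhibitor A20, had a log2 fold change of -4.36, and Nlrx1, a mitochondrial inhibitor of antiviral signaling, had the highest value, 0.69 (adjusted p = 3.80e-05). Placing genes of few counts at the end of their interval nearest to no change left the median of each list as it was. This concerned Spib, Cxcl9 and Il12b alone, which stayed far below the median of their list, so no median could move. The share of genes called lower in the whole table, 10.1%, is the background for each count, and no test of the lists as sets was made. Without T4 the count of sensors, adaptors and kinases that fell was 12, and those of the other 5 lists were 4, 4, 25, 22 and 5 as before.

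**Figure D5:**
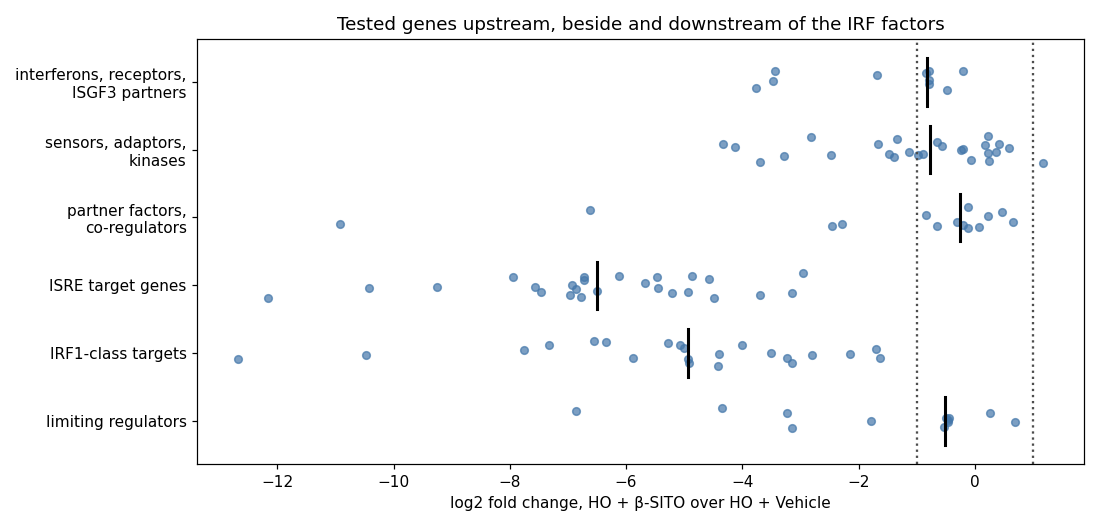
Each point is a tested gene of 1 of 6 lists, at its log2 fold change between HO + β-SITO and HO + Vehicle, with a bar at the list's median and dotted lines at a 2-fold change. The lists were chosen with earlier results of these data known. Points of the ISRE and IRF1-class targets all lie left of the lines (medians -6.51 and -4.93), while in the other 4 lists the medians lie between -0.82 and -0.25.

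The genes whose log2 CPM over the 6 libraries, centred on its mean, came closest to each called IRF gene were sought among 10992 genes with at least 100 counts on average. The measure of likeness was the root mean square difference, and it mostly reflects the size of the change between the groups. For Irf7 they were Phf11b (0.08), the ubiquitin-like modifier gene Isg15 (0.10) and Gm4951 (0.13). For Irf1 they were H2-K1, a class I major histocompatibility gene (0.03), Tapbpl, a peptide editor for class I molecules (0.05), and Tnip1, an A20-binding inhibitor of NF-κB (0.05), where reads of H2-K1 may be shared with its close relatives. For Irf9 they were Junb (0.04), Acvr1b (0.05) and Stk38l (0.06), and for Irf5 AW011738 (0.05), Mxd1 (0.06) and Ecscr (0.06). Their log2 fold changes were -6.96 to -6.85 for the neighbours of Irf7, -3.61 to -3.51 for those of Irf1, -1.70 to -1.63 for those of Irf9 and -1.70 to -1.63 for those of Irf5.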

How the data were processed

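Total RNA was extracted from NMCMs, and 6 libraries were sequenced. The study's methods name an mRNA-seq kit for making the libraries. The submitters' processing notes name FastQC, HISAT2, featureCounts and build GRCm39. Versions, counting options and strand setting were not given in the sources used here. The authors deposited raw read counts per gene with no normalization, in 1 table. From these counts, fits were made with R 4.3.3 and edgeR 4.0.16 (filterByExpr, TMM, quasi-likelihood test, group as the only term), with factors of 0.945 to 0.956 (HO + Vehicle) and 1.05 to 1.06 (HO + β-SITO). The biological coefficient of variation was 6.52%, which with the library sizes sets the precision. The threshold is that of the study's methods, which used DESeq2. Ratios and shares used 0.5 added counts. The fit was tested on simulated data. Alternatives used DESeq2 1.42.0, limma 3.58.1, glmTreat, other normalizations and filters, and each library left out in turn. GENCODE vM21 gave lengths by gene ID, and RefSeq gave promoters.

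The members and lists were chosen with earlier results of these data known. The genes named were the members, the 2 lowest and the highest log2 fold changes of each list, genes of the ratio pairs and, for each called member, the 3 genes most like it. Some genes under this rule are not reported here. Ifnb1 and other interferon genes, Socs1, the genes overlapping members and some markers were named after their values were seen. Counts of replicates differed by more than sampling noise in every pair.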

Additional observations from a re-analysis of the deposited data

How the results depend on the processing

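No paired analysis was possible because the replicate numbers 1 to 3 and 4 to 6 are not shared between the groups. The 4 decreases (Irf7, Irf1, Irf9 and Irf5) were called under all 9 alternatives and without any single library. The alternative without the fold-change cutoff reuses the main fit at a looser threshold, so no called gene could fail it. Over the 9 alternatives the log2 fold change of Irf7 was -6.85 to -6.70, of Irf1 -3.51 to -3.36, of Irf9 -1.67 to -1.52, of Irf5 -1.67 to -1.51, of Irf2 -0.73 to -0.58, of Irf8 -0.61 to -0.46 and of Irf3 0.37 to 0.51. The highest of these values came with upper quartile normalization or library size only, which moved the median of all genes by 0.14 and 0.15 (log2). With each library left out in turn, Irf5 lay between -1.79 and -1.57 and Irf7 between -6.89 and -6.72. Without the fold-change cutoff, Irf2, Irf8 and Irf3 were called too. The counts then were 5007 lower and 4885 higher over all genes, 1 higher IRF gene, and 9, 8 and 10 genes lower for the lists of interferon partners, partner factors and limiting regulators, since more genes pass by construction. Without a filter on low counts Irf4 entered the test, and the count of higher IRF genes was 1 (log2 fold change 3.26, adjusted p = 7.69e-04), a value that depends on the prior count. Shares moved by more than 1 SD of the replicates with the length used, without a change of sign. Without division by length the differences in percentage points were -3.60 (Irf1), 17.8 (Irf2), 14.5 (Irf3), 6.003 (Irf5), -60.5 (Irf7) and 13.9 (Irf8). With the longest protein-coding transcript, an alternative chosen after seeing the data, they were -2.88 (Irf1), 17.6 (Irf2), 17.5 (Irf3), 0.114 (Irf4), 6.77 (Irf5), -61.2 (Irf7), 12.03 (Irf8) and 9.99 (Irf9). Differences in ratios between the groups do not depend on length by construction, but ratio levels do, and Irf1 to Irf2 with β-SITO lay above 1 with one length and below 1 with the other. Irf4 to Spi1 could not be computed without added counts. Counts limit Irf4 most.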
